A study of Mus musculus with 55 samples.

Results

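The Polycomb group holds the repressors that keep developmental genes silent, and 10 genes that encode their subunits were followed here: Ezh2, Eed, Suz12, Jarid2 and Mtf2 of Polycomb repressive complex 2, and Rnf2, Ring1, Cbx7, Pcgf6 and Kdm2b of Polycomb repressive complex 1. The 10 were chosen by symbol, and all 10 were listed both among the 9911 genes measured in CCNA-GFP cells and among the 10237 genes measured in CTCF-AID cells (9574 genes were in both). CCNA-GFP cells are E14Tg2a mouse embryonic stem (ES) cells of strain 129/Ola that carry a fluorescent cyclin A reporter of the cell cycle. CTCF-AID cells are E14Tg2a cells, 1 engineered clone, in which the insulator protein CTCF is fused to a degron, so that the auxin IAA removes the protein. Both lines were grown in serum and LIF, blocked for 4 h with 10 µM RO-3306, an inhibitor of CDK1, then for 4 h with 50 ng/ml nocodazole, shaken off in mitosis and released. In the +IAA arm, 0.5 mM IAA was added for the last 2 h of nocodazole and kept throughout release, asynchronous cells having been treated in parallel for 4 h; the -IAA arm went through the same blocks without auxin. CCNA-GFP cells received no auxin and gave 19 libraries, 3 mitotic, 3 asynchronous, 1 at 50 min and 2 at each of 20, 30, 40, 60, 90 and 120 min. Each CTCF-AID arm gave 18 libraries, 3 mitotic, 3 asynchronous and 2 at each of 20, 40, 50, 60, 90 and 120 min.

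Complex 2 methylates lysine 27 of histone H3 through the methyltransferase Ezh2, which works only when bound to Eed and Suz12. Complex 1 ubiquitinates histone H2A through Rnf2 or Ring1, and exists in canonical forms with a chromobox protein such as Cbx7 and in variant forms built on other PCGF proteins, such as Pcgf6, or recruited to CpG islands by Kdm2b. In ES cells both complexes sit on the promoters of developmental regulators, and the marks they leave have to be carried through division. What was measured was pre-mRNA, the unspliced transcript, whose level follows transcription more closely than that of mature mRNA.

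Values are TPM, a transcript abundance scaled to gene length and library size, and changes are log2 fold changes of TPM + 1, which understate the change of genes near or below 1 TPM. The pre-mRNA of the listed genes together summed to 13747 to 17245 TPM in the mitotic CCNA-GFP libraries and to 30992 to 42576 TPM at 60 min, and to 18606 to 23302 TPM and 38416 to 39173 TPM in the -IAA arm, so that most genes moved upward together, and each change below is to be read against the median of all genes. Against mitosis that median was 0.26, 0.53, 0.79, 0.73 and 0.68 after 40, 50, 60, 90 and 120 min of release and 0.33 in asynchronous CCNA-GFP cells. In the -IAA arm it was 0.34, 0.60, 0.63, 0.40, 0.34 and 0.12 for the same stages, and in the +IAA arm 0.63 at 60 min and 0.35 at 120 min. From asynchronous cells to 120 min it was 0.35 in CCNA-GFP cells and 0.23 in the -IAA arm. Of 7 markers of ES cells 6 were listed (Sox2 was not), with summed levels of 22.7 to 86.7 TPM in CCNA-GFP, 37.0 to 106 TPM in -IAA and 34.8 to 91.4 TPM in +IAA libraries. None of 6 markers of primitive endoderm was listed. Of 6 feeder or fibroblast markers none was listed in CCNA-GFP cells, while Col1a1, Thy1 and Twist1 were listed in CTCF-AID cells with sums of 0.244 to 3.68 TPM (-IAA) and 0.269 to 4.15 TPM (+IAA). Of 5 trophectoderm markers 2 were listed in each table, with sums of 0.105 to 2.44, 0.109 to 5.26 and 0.0639 to 4.68 TPM in the 3 arms. The part of these other markers in the results was not tested. TPM values keep no read counts, so that the depth of each library, and with it the counting error, is unknown, and fewer transcribing cells cannot be told apart from less pre-mRNA per cell.

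In mitotic CCNA-GFP cells the 10 genes spanned a wide range. Mtf2 was highest at 15.2 TPM ± 2.53 (SD, n = 3), followed by Jarid2 at 9.36 ± 1.87, Eed at 8.96 ± 2.89, Suz12 at 5.96 ± 0.929, Cbx7 at 4.89 ± 0.851, Ezh2 at 3.13 ± 0.814, Rnf2 at 2.45 ± 0.438, Pcgf6 at 1.43 ± 0.217, Kdm2b at 1.35 ± 0.262 and Ring1 at 0.280 ± 0.0792 TPM. Of the 9 neighbouring pairs in this order, 7 kept it in all 3 libraries, whereas the order of Jarid2 and Eed, and of Pcgf6 and Kdm2b, changed from library to library. The libraries of 4 pairs did not overlap: Mtf2 and Jarid2, Cbx7 and Ezh2, Rnf2 and Pcgf6, and Kdm2b and Ring1. The values of CTCF-AID cells may have been normalised separately. In the mitotic -IAA libraries Mtf2 (17.2 ± 4.33 TPM), Jarid2 (14.2 ± 3.68) and Suz12 (14.1 ± 2.12) were highest and Ring1 was again lowest (0.307 ± 0.111 TPM).

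**Figure D1:**
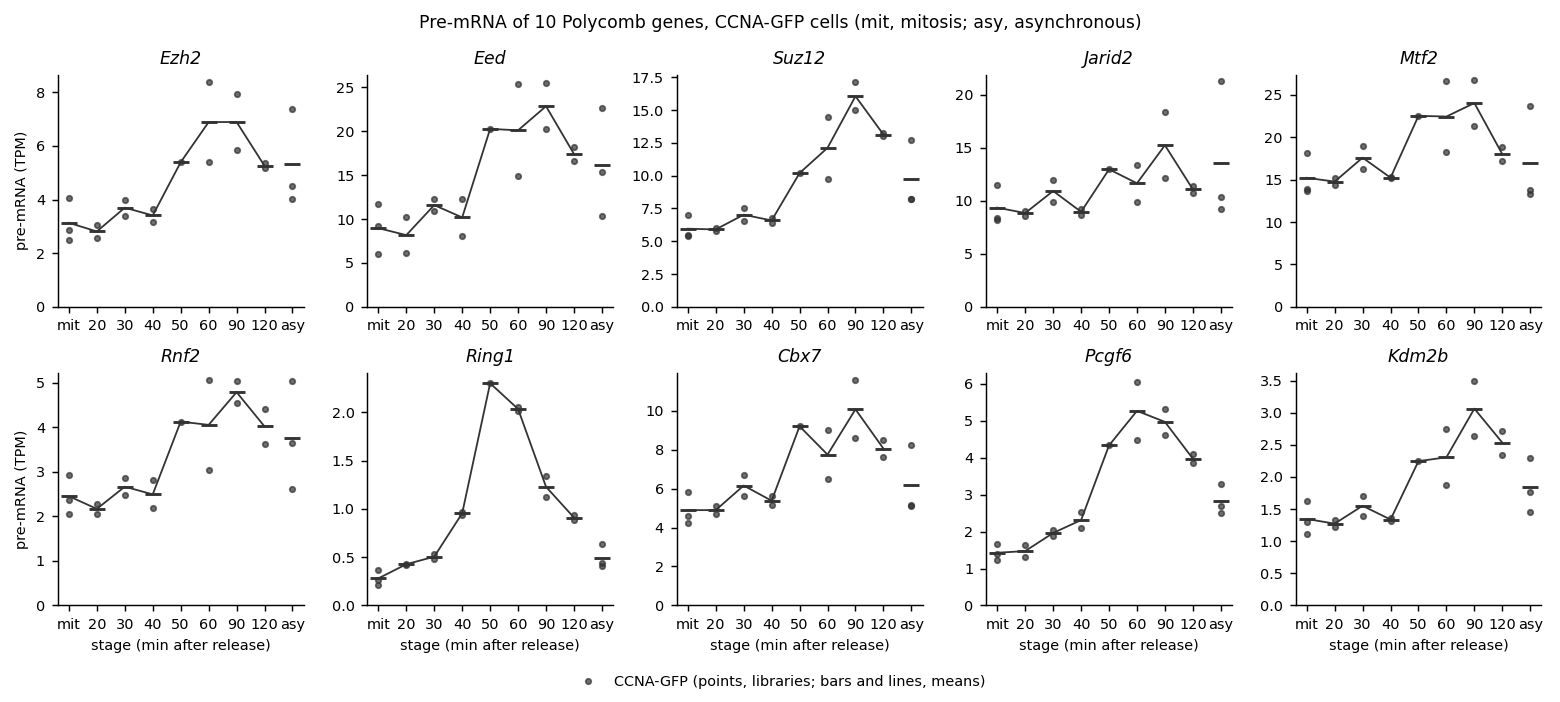
Pre-mRNA of the 10 Polycomb genes in CCNA-GFP cells, in TPM, by stage (mitosis, min after release, asynchronous; the axis is not to scale in time); points are libraries and bars with connecting lines are stage means. Ring1 rose from 0.209 to 0.365 TPM in mitosis to 2.30 TPM in the single 50 min library, while Jarid2 moved from 8.20 to 11.5 TPM in mitosis to 9.93 and 13.4 TPM at 60 min.

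The first comparison asked how soon these genes resumed transcription on leaving mitosis. In CCNA-GFP cells none of the 10 was called at 20 or 30 min (adjusted p under 0.05, limma), when 0% and 0.303% of all genes were called higher. At an unadjusted limma p under 0.05 the count was 0 at 20 min and 1 at 30 min, Ring1, when 2.46% and 11.4% of all genes were higher at that threshold. Its unadjusted p at 30 min was 0.0147. At 40 min Ring1, Pcgf6 and Eed were called higher, 3 of 10 against 49.3% of all genes. The call for Eed (0.39) was lost without replicate 1 (adjusted p = 0.134), 2 (0.137) or 3 (0.0616) and without the replicate block (0.18, adjusted p = 0.773). The call for Pcgf6 was lost with the same total in every library (0.13, adjusted p = 0.0716), where Eed turned to -0.17. Under that scaling 1 of the 10 was higher and 7 were lower at 40 min, when the median of all genes was -0.05. By 60 min all 10 were higher than in mitosis (88.3% of all genes were), with a median log2 fold change of 0.86 beside 0.79 for all genes, and 5 of the 10 lay above that all-gene median: Pcgf6, Eed, Ring1, Ezh2 and Suz12. Without replicate 1, 7 of the 10 were called at 60 min, and Jarid2 (adjusted p = 0.102), Mtf2 (0.0546) and Kdm2b (0.0619) were not. With every library set to the same total, which removes the rise shared by all genes, 2 of the 10 were higher at 60 min (36.4% of all genes) and 6 were lower (33.3%). Unless a share of all genes stands beside them, other counts under this scaling are no result about the 10 as a set. Under it the median of all genes lay between -0.05 and 0.06 in every comparison of stages. Counts of the 10 in the other alternative fits of stages have no share of all genes beside them. They are no result about the 10 as a set either, since calls among all genes may fall in those fits too.

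Ezh2 (65.203 kb at chr6:47530139-47595341, GRCm38), Eed (26.33 kb at chr7:89954654-89980983) and Suz12 (41.018 kb at chr11:79993106-80034123), the core of complex 2, all rose, though with the same total in every library Ezh2 was at -0.03 and Eed at 0.02, without a call, and Suz12 was lower at -0.20. Ezh2 was at 2.86, 2.49 and 4.05 TPM in the 3 mitotic libraries and at 8.37 and 5.41 TPM at 60 min, and the groups did not overlap. Its log2 fold change was 1.09 ± 0.13 (SE; adjusted p = 1.28e-07). Eed, the subunit that reads the methyl mark, went from 9.16, 5.98 and 11.8 TPM to 25.3 and 14.9 TPM, a log2 fold change of 1.29 ± 0.14 (adjusted p = 3.32e-08). Both 60 min libraries of Eed lay above every mitotic one, although replicate 2 was the lower at each stage. Suz12, the scaffold of the complex, rose from 5.37, 5.48 and 7.03 TPM to 14.5 and 9.76 TPM (1.02 ± 0.14, adjusted p = 8.75e-07). At 90 min its libraries were at 14.996 and 17.1 TPM, a log2 fold change of 1.21 from mitosis, beside 1.06 for Eed and 0.80 for Ezh2. A long noncoding gene on the opposite strand, Gm26563, overlaps 30.5% of the Suz12 gene, and whether counting used the strand is not given in the sources used here.

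Ezh2 and Suz12 were also the 2 of the 10 genes with letters of an E2F element in the promoter. E2F factors drive genes of the G1 to S transition. The letters TTTCCCGC or TTTGGCGC were searched on both strands from 250 bases before to 50 bases after the start site in RefSeq promoter windows (GRCm38.p6), and 1.57% of 32851 windows of this length held them. The 10 genes had 15 such windows, since Jarid2, Mtf2 and Kdm2b have more than 1 start. The Ezh2 match lay just after the start, at chr6:47595009-47595038 on the minus strand, and the Suz12 match lay upstream, in chr11:79992856-79993105 on the plus strand. Both are shown 5′ to 3′ on the strand of the gene, the element in capitals, because they were the 2 matches among the 15 windows. Eed, also a core subunit, held no match and rose as well, and a link of the letters to the rise was not tested.
Ezh2: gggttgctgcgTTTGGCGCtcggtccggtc
Suz12: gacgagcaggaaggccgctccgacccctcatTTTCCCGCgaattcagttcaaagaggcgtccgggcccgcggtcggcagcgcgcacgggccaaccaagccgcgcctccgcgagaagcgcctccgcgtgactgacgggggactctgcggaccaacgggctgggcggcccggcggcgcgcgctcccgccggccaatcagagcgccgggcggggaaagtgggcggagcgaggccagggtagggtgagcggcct
None of the 15 windows held an E-box (CACGTG, in 7.15% of all windows) or an ETS element (CCGGAAG, in 8.86%). Letters of an NRF1 element (in 0.971% of all windows) and of the CTCF core (in 0.0365%) were also searched, and none of the 15 held them. These are matches of letters only, and no binding was measured here.

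Jarid2 and Mtf2 (43.331 kb at chr5:108065674-108109004), which help bring complex 2 to its sites, rose least among the complex 2 genes followed here. Jarid2 was at 8.36, 8.20 and 11.5 TPM in mitosis and at 13.4 and 9.93 TPM at 60 min. The 2 groups overlapped, and the log2 fold change, taken within replicates, was 0.50 ± 0.15 (adjusted p = 0.00497); without the replicate block it was 0.29 (adjusted p = 0.328). Mtf2 went from 13.9, 13.6 and 18.1 TPM to 26.6 and 18.2 TPM, with a log2 fold change of 0.68 ± 0.14 (adjusted p = 0.000135). Both were below the all-gene median of 0.79. Once every library was set to the same total the sign turned, to -0.75 for Jarid2 and -0.62 for Mtf2, so that relative to the rest of the pre-mRNA both lost ground.

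Of the complex 1 genes followed here, Ring1 and Pcgf6 stood out. Ring1, a catalytic subunit and the alternative to Rnf2, was nearly silent in mitosis, at 0.209, 0.266 and 0.365 TPM. It was at 0.419 and 0.434 TPM at 20 min, at 0.477 and 0.533 TPM at 30 min, at 0.936 and 0.972 TPM at 40 min, at 2.30 TPM in the 50 min library and at 2.02 and 2.05 TPM at 60 min. It then fell to 1.12 and 1.34 TPM at 90 min and 0.881 and 0.938 TPM at 120 min, against 0.638, 0.438 and 0.407 TPM in asynchronous cells. In every post-mitotic library Ring1 thus lay above all 3 mitotic ones, and from 40 min on also above all 3 asynchronous ones. Its asynchronous mean of 0.494 TPM was under the 0.5 TPM at which the authors listed genes. Ring1 was therefore listed in CCNA-GFP cells only through its released libraries, and some excess of these over the asynchronous mean was a condition of that listing. At 60 min the log2 fold change was 1.26 ± 0.09 (adjusted p = 1.95e-10), and the 50 min library was at 6.29 times the mitotic library of its own replicate. Pcgf6, the PCGF subunit of a variant complex 1 that silences germline genes, went from 1.39, 1.23 and 1.66 TPM in mitosis to 2.52 and 2.11 TPM at 40 min and to 6.05 and 4.49 TPM at 60 min. Its log2 fold change of 1.43 ± 0.11 at 60 min was the largest of the 10 on the log2(TPM + 1) scale (adjusted p = 7.23e-10) and exceeded that of 87.7% of all genes. As a ratio of mean TPM at 60 min to that in mitosis, Ring1 came first at 7.26 and Pcgf6 next at 3.69, and with a pseudocount of 0.1 their log2 fold changes were 2.55 and 1.91. With every library set to the same total, Ring1 and Pcgf6 were the 2 of 10 still called higher at 60 min, at 0.71 and 0.46.

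Ring1 is also the shortest of the 10 genes. It covers 3.889 kb at chr17:34020792-34024680 (GRCm38, minus strand), of which 83.4% is exon, so that little of its pre-mRNA can be told apart from its mRNA. Of the genes listed in CCNA-GFP cells 7.22% are as short. Pcgf6 covers 17.29 kb at chr19:47033617-47050906 (minus strand), 29.1% of it exonic, and Jarid2, the longest, covers 192.17 kb at chr13:44729474-44921643 (plus strand). Across the 10 genes the Spearman correlation of gene length with the log2 fold change at 60 min was -0.79 in CCNA-GFP cells, -0.53 in the -IAA arm and -0.55 in the +IAA arm, and at 120 min it was -0.33, -0.60 and -0.70. Across all genes with a known length it was -0.37, -0.37 and -0.42 at 60 min and -0.23, -0.28 and -0.35 at 120 min. These correlations are over genes of the same libraries and only describe them. The upstream 250 bases of Ring1 (chr17:34024681-34024930) and Pcgf6 (chr19:47050907-47051156), both on the minus strand and without any of the elements searched, are shown because these genes rose most among the complex 1 genes followed here.
Ring1: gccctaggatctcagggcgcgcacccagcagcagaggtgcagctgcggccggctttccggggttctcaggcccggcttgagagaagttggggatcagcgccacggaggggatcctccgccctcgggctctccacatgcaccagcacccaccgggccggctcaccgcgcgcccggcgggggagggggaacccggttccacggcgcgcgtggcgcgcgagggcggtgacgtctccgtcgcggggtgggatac
Pcgf6: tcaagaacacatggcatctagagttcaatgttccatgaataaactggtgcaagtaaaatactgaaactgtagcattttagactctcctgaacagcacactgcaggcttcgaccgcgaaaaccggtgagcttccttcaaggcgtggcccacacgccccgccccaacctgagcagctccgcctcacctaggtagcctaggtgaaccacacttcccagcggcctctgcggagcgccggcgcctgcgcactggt
The first is dense in CG pairs, with 37 in its window of 300 bases, and the Pcgf6 window held 22, against a median of 7 over all windows. Over the 15 windows of the 10 genes the counts ran from 2, for a Mtf2 window, to 49, for a Kdm2b window. They do not set Ring1 and Pcgf6 apart from the other genes.

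Rnf2 (42.952 kb at chr1:151458004-151500955), Cbx7 (55.313 kb at chr15:79915807-79971119) and Kdm2b (119.159 kb at chr5:122870665-122989823) rose less. Rnf2, the main ubiquitin ligase of complex 1 in ES cells, was at 2.37, 2.06 and 2.92 TPM in mitosis and at 5.06 and 3.04 TPM at 60 min (0.65 ± 0.12, adjusted p = 5.89e-05). Cbx7, the chromobox protein that binds methylated lysine 27, was at 4.22, 4.62 and 5.85 TPM and then at 9.02 and 6.47 TPM (0.70 ± 0.13, adjusted p = 4.84e-05). Kdm2b, which recruits variant complex 1 to unmethylated CG-rich DNA, was at 1.11, 1.30 and 1.63 TPM and then at 2.74 and 1.87 TPM (0.58 ± 0.11, adjusted p = 8.86e-05). For each of these the 60 min libraries lay above the mitotic ones, and each change was under the all-gene median. With the same total in every library all 3 turned lower, at -0.39, -0.47 and -0.30.

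The 50 min stage of CCNA-GFP cells had 1 library. Its calls take their spread from the other stages, on the assumption that it varied like them, and have no replicate check of their own. Ring1 (1.34), Pcgf6 (1.00), Eed (0.73), Cbx7 (0.52) and Suz12 (0.45) passed the threshold there on that assumption, 5 of 10 against 66.3% of all genes; Suz12 was not called without replicate 1 (adjusted p = 0.0726). With the same total in every library 2 were higher and 7 lower at 50 min, and the median of the 10 was 0.40 beside 0.53 for all genes before that scaling. Under that scaling the median of all genes was -0.04, and the share of them called is not given. At 90 min all 10 were called higher, against 89.1% of all genes, and without replicate 1 Jarid2 (adjusted p = 0.0664) and Mtf2 (0.0815) were not. At 90 min 2 were higher and 5 lower with the same total in every library, when the median of all genes was 0.04. The highest post-mitotic mean fell at 90 min for 8 of the 10 genes, at 60 min for Pcgf6 and at 50 min for Ring1. The 90 min libraries come from replicates 1 and 3 and the 60 min libraries from replicates 1 and 2, so that these means do not rest on the same experiments. In replicate 1, which has both stages, 7 of those 8 genes were higher at 60 than at 90 min, and Suz12 was not (14.5 and 14.996 TPM).

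At 120 min all 10 were still above mitosis (90.2% of all genes), from 0.39 ± 0.14 for Mtf2 (adjusted p = 0.0118) to 1.15 ± 0.14 for Suz12 (adjusted p = 3.38e-07), with a median of 0.73 beside 0.68 for all genes. The call for Mtf2 was lost without replicate 1 (adjusted p = 0.0944), without replicate 2 (0.05003), after division by the library's factor (0.0801) and without the replicate block (0.24, adjusted p = 0.322), and that for Jarid2 without replicate 2 (adjusted p = 0.0758), after that division (0.0535) and without the block (0.24, adjusted p = 0.420). With the same total in every library 1 of the 10 was higher and 5 were lower, when the median of all genes was 0.04. Between 60 and 120 min Ring1 fell by 0.67 ± 0.09 on the log2 scale (adjusted p = 2.42e-05), a drop larger than that of all but 5.94% of genes. Pcgf6 fell by 0.32 ± 0.12 (adjusted p = 0.0417), and no other of the 10 was called (28.5% of all genes were lower). The call for Pcgf6 was lost without replicate 1 (log2 change -0.11, adjusted p = 0.723), without replicate 3 (adjusted p = 0.0767) and without the replicate block (adjusted p = 0.215), while that for Ring1 was made in each of these fits. Relative to asynchronous cells, 6 of the 10 were higher at 120 min (63.4% of all genes): Suz12 by 0.55 ± 0.14, Cbx7 by 0.50 ± 0.13, Pcgf6 by 0.45 ± 0.11, Kdm2b by 0.41 ± 0.11, Eed by 0.37 ± 0.14 and Ring1 by 0.37 ± 0.09. None of the 10 was called higher when the values were divided by the library's own factor, 1 was without the replicate block, and with the same total in every library 0 were higher and 3 lower.

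Asynchronous CCNA-GFP cells exceeded mitotic ones for 9 of the 10 genes (70.4% of all genes), and Mtf2 was the exception at 0.11 ± 0.12 (adjusted p = 0.427). Mtf2 was at 13.8, 13.3 and 23.7 TPM in asynchronous cells, a range that spans the mitotic libraries. Eed (0.76 ± 0.12), Pcgf6 (0.65 ± 0.10) and Suz12 (0.61 ± 0.12) differed most. Without replicate 3 there were 6 calls in place of 9, and without the replicate block 5. Scaled to the same total, 2 were higher and 2 lower.

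**Figure D2:**
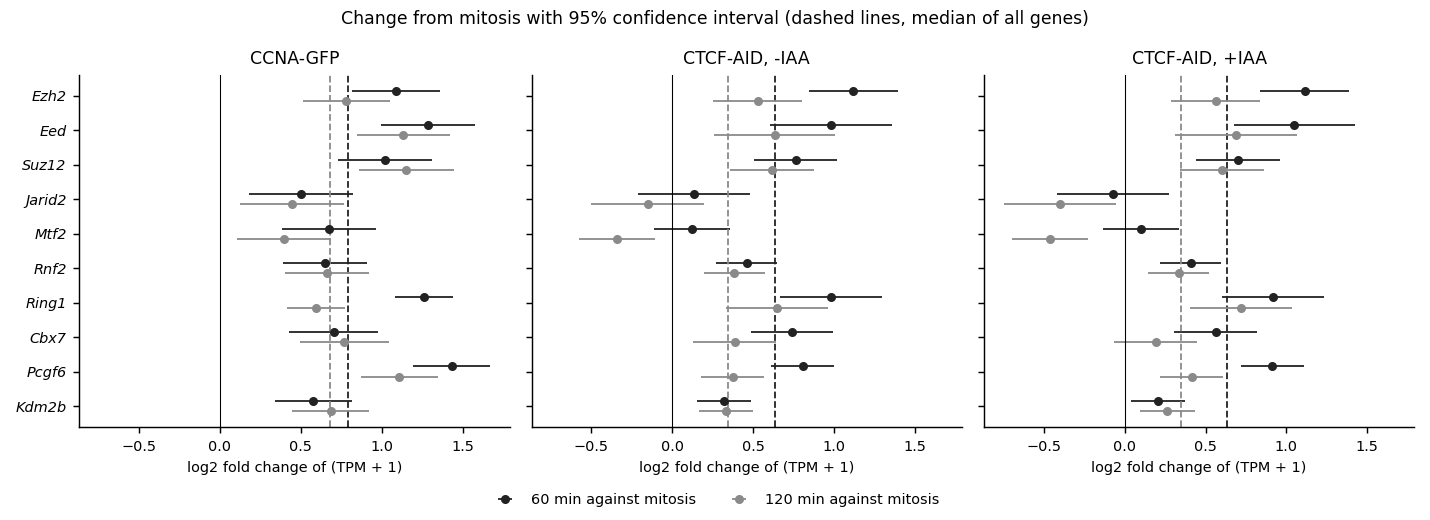
Log2 fold change of TPM + 1 at 60 min (black) and 120 min (grey) against mitosis for each gene, with 95% confidence intervals, in CCNA-GFP cells and the -IAA and +IAA arms of CTCF-AID cells; dashed lines are the medians of all genes. Mtf2 at 120 min lay at 0.39 in CCNA-GFP cells and at -0.34 and -0.46 in the -IAA and +IAA arms.

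In CTCF-AID cells without IAA Ezh2, Eed, Ring1 and Pcgf6 again changed most at 60 min, and Jarid2 and Mtf2 were not called higher at any stage. None of the 10 was called at 20 min (0% of all genes; the lowest unadjusted p was that of Cbx7, 0.0756). At 40 min 5 of 10 were higher (63.3% of all genes), namely Ring1 (0.90 ± 0.15), Eed (0.58 ± 0.18), Cbx7 (0.47 ± 0.12), Pcgf6 (0.46 ± 0.09) and Ezh2 (0.34 ± 0.13). Without replicate 1 the calls for Cbx7 (adjusted p = 0.0596) and Ezh2 (0.0576) were lost, and without the replicate block 1 gene was called, Ring1. With the same total in every library 1 was higher and 6 were lower, and Ezh2, Eed, Cbx7 and Pcgf6 turned below 0. At 50 min and at 60 min 8 of 10 were higher (79.1% and 84.8% of all genes), each time all but Jarid2 and Mtf2. At 50 min 5 were called without replicate 1, when Suz12 (adjusted p = 0.103), Rnf2 (0.0553) and Kdm2b (0.135) were not. The call for Kdm2b was also lost without the replicate block (0.16, adjusted p = 0.267, limma) and after division by the library's factor (0.11, adjusted p = 0.0829). With the same total in every library 1 gene was higher and 5 were lower at 50 min, and 2 were higher and 5 lower at 60 min. The median of all genes was then 0.06 at both times, and no share of all genes called lower is given for this arm. The median at 60 min was 0.75 beside 0.63 for all genes.

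Ezh2 showed the largest log2 fold change of TPM + 1 among the 10 at 60 min in this arm; as a ratio of mean TPM to that in mitosis, Ring1 came first at 5.04 and Ezh2 next at 2.25. Ezh2 was at 3.63, 3.47 and 4.79 TPM in mitosis, at 5.34 and 4.27 TPM at 40 min, at 8.28 and 9.10 TPM at 50 min and at 9.09 and 8.77 TPM at 60 min, and had fallen to 5.11 and 6.09 TPM by 120 min. The log2 fold change was 1.12 ± 0.13 at 60 min (adjusted p = 4.66e-08), and between 60 and 120 min it fell by 0.59 ± 0.14 (adjusted p = 0.00129). Eed rose by 0.98 ± 0.18 and Suz12 by 0.76 ± 0.13 at 60 min. Suz12 went from 13.7, 12.1 and 16.3 TPM to 23.0 and 21.4 TPM, and was at 19.5 and 28.6 TPM at 90 min. Ring1 went from 0.348, 0.391 and 0.181 TPM in mitosis to 1.29 and 1.47 TPM at 40 min and 1.80 and 1.74 TPM at 50 min, and was at 0.262 and 0.234 TPM at 20 min, inside the mitotic range. Its change at 60 min was 0.98 ± 0.15 (adjusted p = 2.48e-06). Pcgf6 started higher than in the other line, at 3.52, 2.29 and 3.37 TPM, and reached 6.76 and 6.89 TPM at 50 min, and its change at 60 min was 0.81 ± 0.09 (adjusted p = 3.24e-08). Cbx7 (0.74 ± 0.12), Rnf2 (0.46 ± 0.09) and Kdm2b (0.32 ± 0.08) were also called at 60 min. The call for Kdm2b was lost without replicate 1 (0.16, adjusted p = 0.115) and that for Rnf2 without the replicate block (0.34, adjusted p = 0.0767). With the same total in every library 2 of the 10 were called higher (39.4% of all genes), Ring1 at 0.56 and Ezh2 at 0.28, whereas Pcgf6 was then at 0.02 (adjusted p = 0.794).

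Mtf2 was called lower than in mitosis at 90 and 120 min and in asynchronous cells of this line, but none of these calls was made in every fit. It was at 16.2, 13.4 and 21.9 TPM in mitosis, at 17.3 and 14.98 TPM at 60 min, at 12.7 and 18.6 TPM at 90 min, at 11.8 and 11.01 TPM at 120 min and at 13.3, 9.91 and 20.1 TPM in asynchronous cells. Both 120 min libraries lay below all mitotic ones. On the log2 scale it differed from mitosis by 0.12 ± 0.11 at 60 min (adjusted p = 0.306), -0.29 ± 0.11 at 90 min (adjusted p = 0.0236), -0.34 ± 0.11 at 120 min (adjusted p = 0.0101) and -0.26 ± 0.10 in asynchronous cells (adjusted p = 0.0407). Without replicate 1 the adjusted p was 0.0634 at 90 min, 0.172 at 120 min (-0.20) and 0.0768 in asynchronous cells. The call at 90 min was also lost without replicate 3 (adjusted p = 0.0902), and that in asynchronous cells without replicate 2 (0.182) or 3 (0.0889). Without the replicate block none of the 3 was made, at -0.12 (adjusted p = 0.687), -0.53 (0.109) and -0.26 (0.504). Of all genes, 3.37%, 3.15% and 5.25% were called lower at 90 min, at 120 min and in asynchronous cells. In CCNA-GFP cells the corresponding change at 120 min was 0.39 ± 0.14. The values of the 2 lines may have been normalised separately, and the difference between the lines was not tested. Mtf2 shares 6.09% of its span with Tmed5 on the opposite strand.

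Jarid2 was at 13.3, 11.1 and 18.3 TPM in mitosis, at 13.9 and 12.6 TPM at 60 min and at 12.1 and 9.36 TPM at 120 min. The groups overlapped at both times, and no stage of the -IAA arm was called against mitosis, the log2 fold changes at 60 and 120 min being 0.14 ± 0.17 (adjusted p = 0.442) and -0.15 ± 0.17 (adjusted p = 0.415). At 120 min Jarid2 stood at percentile 4.30 of all genes.

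At 120 min 8 of the 10 were above mitosis in the -IAA arm (69.6% of all genes), again all but Jarid2 and Mtf2, with 5 called without replicate 2, 3 without the replicate block and, scaled to the same total, 1 higher and 2 lower. Between 60 and 120 min 4 fell (53.1% of all genes were lower): Ezh2, Mtf2 (by 0.46 ± 0.12), Pcgf6 (by 0.43 ± 0.10) and Cbx7 (by 0.35 ± 0.13). Cbx7 was not called without replicate 1 (-0.20, adjusted p = 0.280). Without the replicate block the adjusted p was 0.214 for Mtf2, 0.0677 for Pcgf6 and 0.295 for Cbx7, and with the same total in every library these 3 were not called either, which leaves Ezh2 as the 1 lower, beside 3 higher. At 120 min 6 of 10 were above asynchronous cells (51% of all genes), led by Suz12 (0.56 ± 0.13) and Eed (0.53 ± 0.18); without replicate 2 this was 1, without the replicate block 1, after division by the library's factor 0, and scaled to the same total 1, with 3 lower. Asynchronous cells exceeded mitotic ones for Ring1 (0.45 ± 0.13, adjusted p = 0.0105) and Cbx7 (0.42 ± 0.11, adjusted p = 0.00432), 2 of 10 against 34.3% of all genes. Neither was called without replicate 1, without replicate 3 or without the replicate block, and 6 were after division by the library's factor. In each CTCF-AID arm the highest post-mitotic mean fell at 50 min for 6 of the 10 genes and at 90 min for 2; the libraries of both these stages come from replicates 1 and 3 and those of 60 min from replicates 1 and 2.

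**Figure D3:**
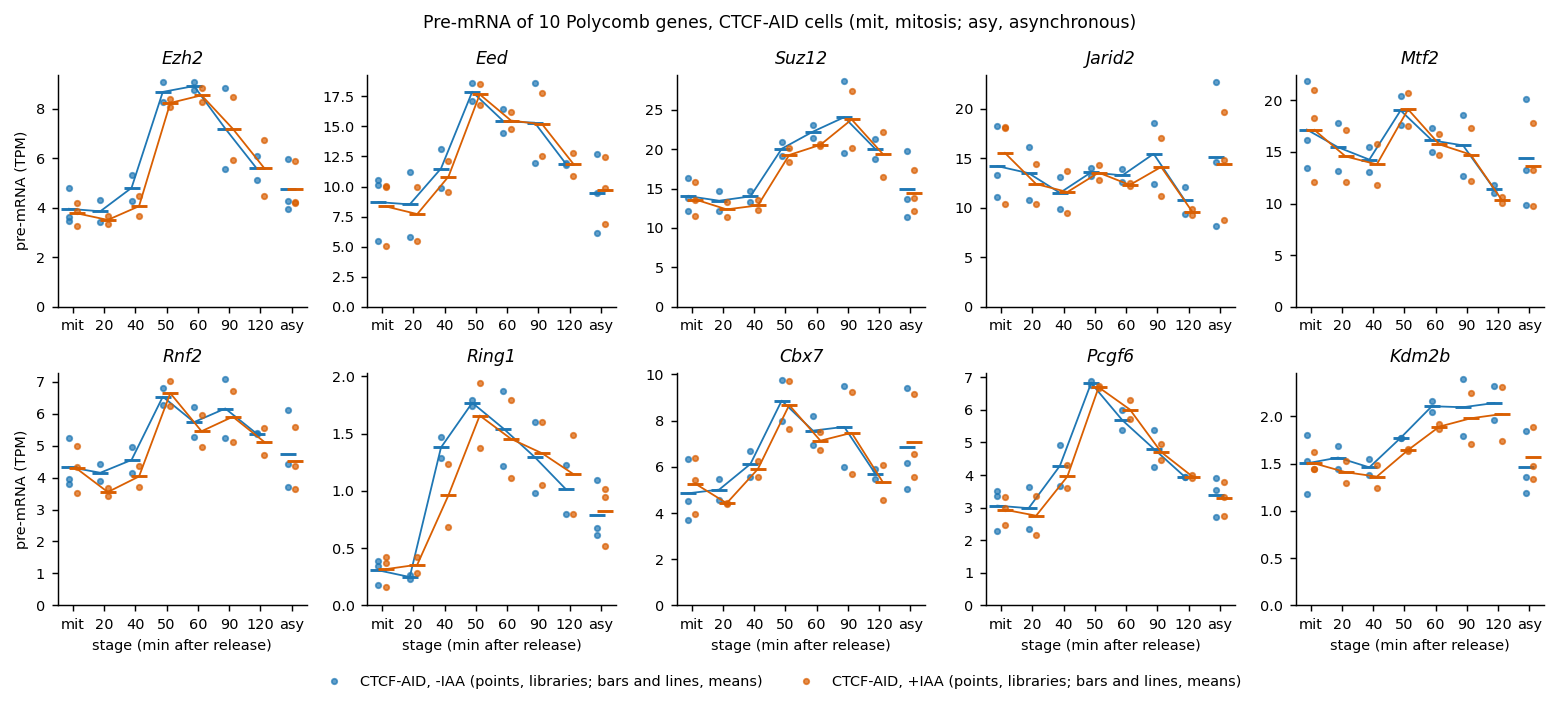
Pre-mRNA of the 10 Polycomb genes in CTCF-AID cells, in TPM, by stage (the axis is not to scale in time), without IAA (blue) and with IAA (orange); points are libraries and bars with connecting lines are stage means. Pcgf6 at 50 min was at 6.76 and 6.89 TPM without and at 6.66 and 6.73 TPM with IAA, and Ring1 at 40 min at 1.29 and 1.47 TPM without and at 0.689 and 1.24 TPM with IAA.

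The next comparison asked whether removal of CTCF altered the return of these genes. IAA destroys the tagged protein, so the level of Ctcf pre-mRNA does not check the depletion. Ctcf was at 5.74, 6.15 and 6.78 TPM in mitosis without IAA and at 6.41, 6.10 and 7.18 TPM with it, and its log2 fold change between arms ranged from -0.05 at 20 min to 0.24 in asynchronous cells without a call, with or without the replicate block. Ctcf was higher with IAA in all 10 same-numbered pairs from 40 to 120 min, for which no share of all genes is given. It was higher in 1 of 2 pairs at 20 min and in 2 of 3 in mitosis. All 3 asynchronous pairs were higher too, as were those of 21.0% of all genes. In asynchronous cells the blocked fit gave 0.24 ± 0.10 for Ctcf (limma, adjusted p = 0.499, unadjusted p = 0.0209). In the +IAA arm 8 of the 10 were higher than in mitosis at 60 min (82.2% of all genes), all but Jarid2 (-0.07 ± 0.17) and Mtf2 (0.10 ± 0.11), led by Ezh2 (1.11 ± 0.13), Eed (1.05 ± 0.18), Ring1 (0.92 ± 0.15) and Pcgf6 (0.91 ± 0.09). Without the replicate block there were 5 calls. At 120 min 7 were higher (68.2% of all genes), while Mtf2 (-0.46 ± 0.11, adjusted p = 0.000994) and Jarid2 (-0.40 ± 0.17, adjusted p = 0.0354) were lower than in mitosis (4.42% of all genes). The 2 replicate pairs behind these differed, at -0.894 and -0.0681 for Jarid2 and at -0.804 and -0.175 for Mtf2. Without replicate 1 Jarid2 was at 0.04 (adjusted p = 0.861) and Mtf2 at -0.15 (adjusted p = 0.280), neither of them called, and without the replicate block Jarid2 was at -0.60 (adjusted p = 0.127) and Mtf2 at -0.64 (adjusted p = 0.0489). The 7 higher calls became 2 without replicate 2 and 1 without the replicate block, and with the same total in every library 1 gene was higher and 4 were lower. No share of all genes is given for these fits. At 60 min that scaling left 2 higher and 6 lower. Each arm has its own mitotic libraries, but each shares them between its own stages.

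Compared directly between arms, none of the 10 genes was called at any of the 8 stages, over the mean of 20, 40, 50 and 60 min, or in the interactions of stage and arm (limma, adjusted p under 0.1 and, for the effect of IAA, an absolute log2 fold change over 0.2). None had an unadjusted p under 0.05 either, with or without the replicate block, when 0.225% to 2.88% and 0.664% to 6.87% of all genes did, depending on the comparison. Over the mean of 20 to 60 min 0.996% of all genes were called, and at single stages 0% in mitosis and after 20 or 40 min, 0.283% and 0.225% at 50 and 60 min, 0.733% and 0.586% at 90 and 120 min, and 1.01% in asynchronous cells; of the interactions, 0.0195% and 0%. With the replicate block the shares were 1.602% over 20 to 60 min, 0% in mitosis and at 20 min, 0.0195% at 40 min, 0.987% and 1.006% at 50 and 60 min, 1.71% and 1.43% at 90 and 120 min, 2.43% in asynchronous cells and 0.410% and 0.215% for the interactions, and still none of the 10 was called. All 10 estimates over 20 to 60 min were just below 0, as were 74.9% of all genes, with a median of -0.07 beside -0.03. Between same-numbered libraries, Suz12, Cbx7 and Kdm2b were lower with IAA in all 8 pairs from 20 to 60 min, as were 11.4% of all genes. Kdm2b was lower in all 12 pairs from 20 to 120 min (3.38% of all genes) and higher in all 3 asynchronous pairs (21.0%). Mtf2 and Rnf2 were lower in all 3 asynchronous pairs (13.1% of all genes), and Eed and Suz12 in all 3 mitotic pairs (19.9%). The most negative were Ezh2 at -0.10 (95% confidence interval -0.32 to 0.11), Suz12 at -0.10 (-0.32 to 0.13) and Rnf2 at -0.09 (-0.29 to 0.11), and the least was Pcgf6 at -0.03 (-0.22 to 0.16). The intervals of the 10 genes together ran from -0.42 to 0.31. With the replicate numbers as a block they ran from -0.25 to 0.15, and the lowest unadjusted p was that of Kdm2b, 0.0789. A p that misses the threshold does not show that the arms were alike, and these intervals give the sizes of change that the libraries leave possible.

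**Figure D4:**
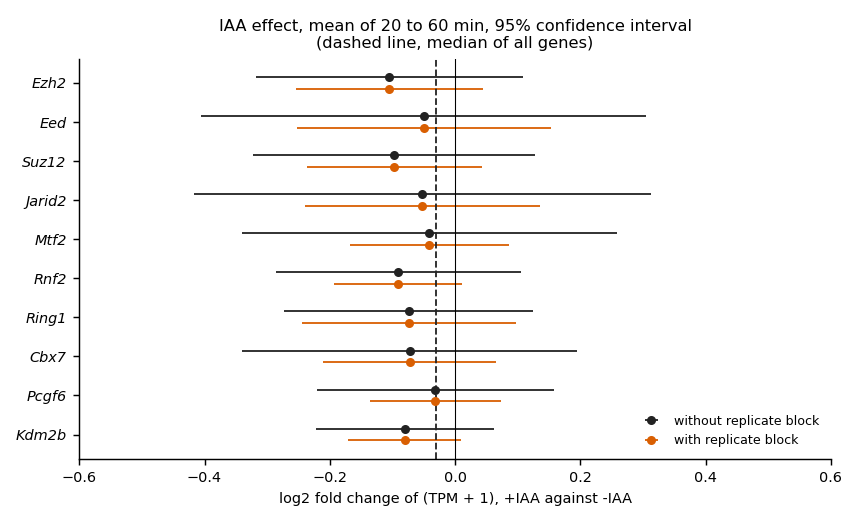
Log2 fold change of TPM + 1 between +IAA and -IAA, averaged over 20 to 60 min, for each gene, with 95% confidence intervals from the fit without (black) and with (orange) the replicate block; the dashed line is the median of all genes, -0.03. All 10 intervals include 0 in both fits.

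At single stages the intervals, given from the fit without the block unless stated, were wider. Ring1 at 40 min had the lowest unadjusted p of any gene and stage in the fit without the block, 0.144. It was at 1.29 and 1.47 TPM without and at 0.689 and 1.24 TPM with IAA, all +IAA values lying below both -IAA values, and the log2 fold change was -0.29 (95% confidence interval -0.69 to 0.11, adjusted p = 1.00). With the replicate block the Ring1 interval at 40 min was -0.63 to 0.05 (limma, unadjusted p = 0.0909). The lowest unadjusted p of a single stage in that fit was 0.0837, of Rnf2 at 20 min (-0.18, interval -0.38 to 0.03). By 60 min the Ring1 libraries overlapped, at 1.21 and 1.88 TPM without and 1.11 and 1.80 TPM with IAA. Ezh2 at 40 min was at 5.34 and 4.27 TPM without and 4.47 and 3.67 TPM with IAA (-0.19, interval -0.62 to 0.23). In asynchronous cells the 10 estimates lay close to 0, Ezh2 being at 0.01 (-0.34 to 0.36), Suz12 at -0.02 (-0.39 to 0.34) and Ring1 at 0.02 (-0.30 to 0.35).

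Subunits that replace one another in the complexes were then compared within each library, which cancels the library's scale. The ratio of Ring1 to Rnf2 was 0.0882 to 0.129 in the 3 mitotic CCNA-GFP libraries, 0.333 and 0.447 at 40 min, 0.558 at 50 min, 0.398 and 0.674 at 60 min, 0.20 and 0.259 at 120 min and 0.0809 to 0.175 in asynchronous cells. In CCNA-GFP cells Ring1 thus gained on Rnf2 after mitosis and lost most of that gain by 120 min. Ring1 was at 0.209 to 0.365 TPM in the mitotic CCNA-GFP libraries, so that the ratios there rest on low values. As 83.4% of the Ring1 gene is exon, its side of the ratio may also hold mRNA. In the -IAA arm the ratio was 0.0347 to 0.0988 in mitosis, 0.260 and 0.355 at 40 min, 0.148 and 0.229 at 120 min and 0.139 to 0.182 in asynchronous cells. With IAA it was 0.0317 to 0.104 in mitosis, 0.158 and 0.333 at 40 min, 0.171 and 0.269 at 120 min and 0.143 to 0.216 in asynchronous cells. The ratio of Ezh1, the methyltransferase that replaces Ezh2 in non-dividing cells, to Ezh2 was 0.132 to 0.20 in mitotic CCNA-GFP cells and 0.301 and 0.345 at 120 min, with 0.118 to 0.171 in asynchronous cells. In the -IAA arm it was 0.261 to 0.335 in mitosis, 0.385 and 0.420 at 40 min and 0.257 and 0.299 at 120 min, its highest mean being at 40 min.

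**Figure D5:**
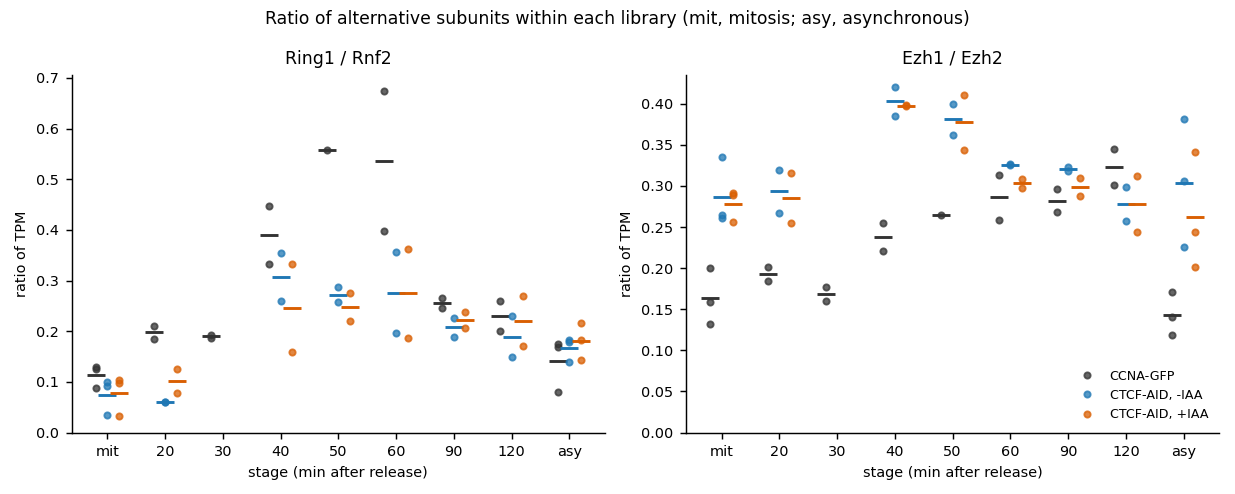
Ratio of TPM of Ring1 to Rnf2 (left) and of Ezh1 to Ezh2 (right) within each library, by stage, in CCNA-GFP cells and both CTCF-AID arms; points are libraries and bars are means. The Ring1 to Rnf2 ratio was 0.0317 to 0.129 in all mitotic libraries and 0.158 to 0.447 in all 40 min libraries.

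Cbx7 was higher per length than Cbx2, Cbx6 and Cbx8 in mitosis, and these gained on it by 60 min. Its ratio to Cbx2 in CCNA-GFP cells was 8.07 to 19.9 in mitosis, 2.66 and 2.95 at 60 min and 5.03 to 8.30 in asynchronous cells. Cbx2, Cbx6 and Cbx8 were under 1 TPM in mitotic CCNA-GFP cells, so that ratios to them rest on low values. At 60 min Cbx2 (1.48 ± 0.10), Cbx8 (1.39 ± 0.10) and Cbx6 (1.06 ± 0.14) had each risen by more than Cbx7 (0.70), and by 120 min Cbx8 had fallen by 1.09 ± 0.10 from 60 min, while Cbx7 was at 0.06 ± 0.14 (adjusted p = 0.752). Among PCGF genes, Bmi1 (2.00 ± 0.12) and Pcgf1 (1.56 ± 0.13) rose more than Pcgf6 in CCNA-GFP cells at 60 min, Pcgf2 rose by 1.31 ± 0.14, and Pcgf3 (0.61 ± 0.12) and Pcgf5 (0.50 ± 0.09) rose less. Whether these genes differ from one another was not tested.

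The wider Polycomb machinery had 41 further listed names, of which 36 were measured in CCNA-GFP and 35 in CTCF-AID cells. At 60 min all 36 were higher than in mitosis in CCNA-GFP cells, against 88.3% of all genes, with a median of 1.13, and 34 of 35 were in the -IAA arm, against 84.8% of all genes, with a median of 0.96. The 10 genes described above had medians of 0.86 and 0.75 and all genes 0.79 and 0.63. Bmi1, a PCGF subunit of canonical complex 1, and Fbrs, a partner of variant complex 1, rose most in CCNA-GFP cells on the log2(TPM + 1) scale. Bmi1 went from 0.442 TPM ± 0.244 (SD, n = 3) to 4.57 ± 0.963 (n = 2), and Fbrs from 2.07 ± 0.196 to 9.64 ± 0.734 TPM (1.88 ± 0.14, SE). With the same total in every library Bmi1 was at 1.29 and Fbrs at 0.80. Scmh1 (0.20 ± 0.08) and Phc2 (0.20 ± 0.07), both of canonical complex 1, rose least, and with the same total in every library both were lower, at -0.27 (adjusted p = 0.00471) and -0.28 (adjusted p = 0.000426). By role, the 10 genes included and to be read against the same 88.3% of all genes, core complex 2 had 6 of 6 higher (median 1.19), its accessory subunits 6 of 6 (0.63), chromobox and Phc-type subunits 9 of 9 (1.06), PCGF genes 6 of 6 (1.37), variant partners 17 of 17 (1.00) and the enzymes that oppose Polycomb, such as Kdm6b, 6 of 6 (1.01). Between 60 and 120 min 14 of the 36 fell, where 28.5% of all genes fell, and 2 rose, for which no share of all genes is given. Over 20 to 60 min none of the 35 was called between the IAA arms. Of 32 developmental genes that Polycomb keeps low in ES cells, 8 were listed in CCNA-GFP cells, and 7 of these were higher at 60 min than in mitosis, against 88.3% of all genes, with a median of 0.76 beside 0.79 for all genes. In asynchronous cells 1 of the 8 was higher, against 70.4% of all genes, with a median of 0.05 beside 0.33. The authors listed genes by their level in asynchronous or released cells, so that a target quiet elsewhere could enter the table only through its level after mitosis, and these counts support nothing on the targets as a whole.

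Across the 25 stage means of both lines, centred within each table, the 10 genes fell into patterns of differing likeness. Eed and Pcgf6 were most alike (Pearson r = 0.97), followed by Eed and Rnf2 (0.96) and Ezh2 and Eed (0.95), and Jarid2 and Ring1 were least alike (0.17). Among 6604 genes in both tables that averaged 1 TPM or more, the gene most like Pcgf6 was Rhoa (0.995), most like Eed was Ccnt2 (0.992), most like Suz12 was Rfx7 (0.992), most like Ezh2 was Pdpr (0.987), most like Rnf2 was Morc3 (0.986), most like Kdm2b was Cnot2 (0.972), most like Ring1 was Foxred1 (0.967), most like Cbx7 was Tsix (0.961), most like Mtf2 was Ppp2r2d (0.956) and most like Jarid2 was Fkbp5 (0.902). The means share libraries and the overall rise after mitosis, and these coefficients are descriptions only.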

How the data were processed

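Pre-mRNA was measured by ribo-depleted, stranded, paired-end RNA-seq. The authors aligned reads with STAR to mm10 and ran RSEM on Gencode transcripts to which 1 unspliced isoform per gene had been added. The deposited values are pre-mRNA TPM for RefSeq genes with a mean over 0.5 TPM in asynchronous cells or in post-mitotic samples. They come in 1 table per cell line, and the sources used here do not say whether each was normalised on its own. Within a library the low TPM values, which were checked, are whole multiples of one step to within 0.02 steps. That step is RSEM's last decimal times 1.84 to 3.81, a factor that the methods do not name. Neither file held columns outside the samples used (0 columns left out).

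log2(TPM + 1) was fitted with limma 3.58.1 (R 4.3.3; lmFit, eBayes with trend) over all genes of a table, with Benjamini-Hochberg adjustment. Stages were compared with mitosis with the replicate number as a block (adjusted p under 0.05), and +IAA with -IAA without a block (adjusted p under 0.1, absolute log2 fold change over 0.2). Replicates are independent experiments; their numbers pair libraries, since deviations from the stage means correlated above 0.1 in all 20 CCNA-GFP and all 88 CTCF-AID pairs of groups (lowest r 0.130 and 0.110). No 2 libraries held identical values, and p-values measure the spread between these replicates only. The script was tested on simulated data. No test was made across tables. Gene spans come from Gencode on GRCm38 and promoter sequences from RefSeq (GRCm38.p6); Python 3.11.15, pandas 2.3.3 and matplotlib 3.10.9 were used.

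The 10 genes and the marker and Polycomb lists were chosen with earlier results of these data known. Beside the 10, the text names Ctcf, paralogs of the subunits (1 is not reported here), the 2 listed Polycomb genes with the largest and the 2 with the smallest change at 60 min in CCNA-GFP cells, and the genes most like each of the 10; Kdm6b, Gm26563, Tmed5 and the individual marker genes were named after their values or positions were seen. Alternatives were a pseudocount of 0.1, a mean of at least 1 TPM, the same total in each library, division by the library's factor, no trend, the other choice of block, IAA fits on single stages, adjusted p under 0.05 for IAA, and leaving out each replicate.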

Additional observations from a re-analysis of the deposited data

Results flagged for a closer look

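CCNA-GFP cells were set against -IAA cells and -IAA against +IAA cells. Among these comparisons, with at least 2 replicate pairs in each group, in 7 cases every replicate pair of one group moved up from mitosis and every pair of the other moved down. The differences given here are of mean log2 fold changes and were not tested, and for the 2 lines they span values that may have been normalised separately. No share of all genes with such a split is given, so the number of cases is no result about these genes. The change of Mtf2 was lower in -IAA CTCF-AID than in CCNA-GFP cells by -0.19 at 40 min, by -0.84 at 90 min and by -0.71 at 120 min, and that of Jarid2 by -0.18 at 40 min and by -0.55 at 120 min. Ring1 at 20 min was up in both CCNA-GFP pairs and down in both -IAA pairs, a difference of -0.34. Suz12 at 20 min moved up in both -IAA pairs and down in both +IAA pairs, a difference of -0.0677. CCNA-GFP and +IAA cells differ in both line and IAA. Between them 11 changes were opposite in every pair, 4 each for Jarid2 and Mtf2 (20, 40, 90 and 120 min), 2 for Kdm2b (20 and 40 min) and 1 for Suz12 (20 min), and these were not tested either. At 20 min the medians of all genes were themselves 0.06 in CCNA-GFP and 0.004 in +IAA cells. No share of all genes with such opposite changes is given, so this count is no result about these genes either.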

How the results depend on the processing

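Before the alternatives, 10 of 10 genes were higher at 60 min in CCNA-GFP cells and 8 of 10 in each CTCF-AID arm, and 0 were called between the IAA arms; 0 were called between the arms in every alternative run. Scaling each library to the same total changed most. Of the 10 genes it called 1 higher and 7 lower at 40 min, 2 and 6 at 60 min, 1 and 5 at 120 min and 2 and 2 in asynchronous CCNA-GFP cells, 3 higher and 1 lower from 60 to 120 min and 0 higher and 3 lower at 120 min than in asynchronous cells. In the -IAA arm it called 1 higher and 6 lower at 40 min, 2 and 5 at 60 min, 1 and 2 at 120 min, 3 and 1 from 60 to 120 min and 1 and 3 at 120 min against asynchronous cells, and with IAA 2 and 6 at 60 min. The sign turned in CCNA-GFP cells at 40 min for Ezh2 (-0.21), Eed (-0.17), Suz12 (-0.29), Jarid2 (-0.40), Mtf2 (-0.41), Rnf2 (-0.33), Cbx7 (-0.27) and Kdm2b (-0.30), at 60 min for Ezh2 (-0.025), Suz12 (-0.20), Jarid2 (-0.75), Mtf2 (-0.62), Rnf2 (-0.39), Cbx7 (-0.47) and Kdm2b (-0.30), at 120 min for Ezh2 (-0.16), Jarid2 (-0.63), Mtf2 (-0.71), Rnf2 (-0.23), Cbx7 (-0.24) and Kdm2b (-0.072), and in asynchronous cells for Jarid2 (-0.14), Mtf2 (-0.47), Rnf2 (-0.013), Cbx7 (-0.25) and Kdm2b (-0.11). It turned in the -IAA arm at 40 min for Ezh2 (-0.19), Eed (-0.00028), Suz12 (-0.47), Rnf2 (-0.35), Cbx7 (-0.070) and Pcgf6 (-0.039), at 60 min for Suz12 (-0.17), Jarid2 (-0.78), Mtf2 (-0.81), Rnf2 (-0.36), Cbx7 (-0.11) and Kdm2b (-0.32), at 120 min for Rnf2 (-0.10), Cbx7 (-0.11), Pcgf6 (-0.078) and Kdm2b (-0.048), in asynchronous cells for Suz12 (-0.12), and from 60 to 120 min for Suz12 (0.24) and Rnf2 (0.26). By construction this scaling removes the rise shared by all genes. Shares of all genes called under it are given above for 60 min only, so the counts at other stages are no result about these genes as a set. Division by the library's factor gave 6 at 40 min, 1 from 60 to 120 min and 0 at 120 min against asynchronous CCNA-GFP cells, and 6 in asynchronous and 0 at 120 min against asynchronous -IAA cells, where Mtf2 against mitosis turned to 0.0084; the cause was not tested. A pseudocount of 0.1 and a mean of at least 1 TPM, which drops Ring1, each left 1 gene lower from 60 to 120 min in CCNA-GFP cells, and the latter 1 higher in asynchronous -IAA cells.

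Without the replicate block 5 genes were higher in asynchronous CCNA-GFP cells, 1 was lower from 60 to 120 min and 1 higher at 120 min than in asynchronous cells; in the -IAA arm it was 1 at 40 min, 3 at 120 min, 0 in asynchronous cells, 1 from 60 to 120 min and 1 at 120 min against asynchronous cells, and with IAA 5 at 60 min. With the replicate block 0 of the 10 were called between the IAA arms. Leaving out each replicate gave 2 at 40 min, 7 to 10 at 60 min, 8 to 10 at 120 min, 6 to 7 in asynchronous cells, 1 to 3 from 60 to 120 min and 5 to 7 at 120 min against asynchronous CCNA-GFP cells, then 3 to 5, 7 to 8, 5 to 8, 0 to 2, 3 to 4 and 1 to 6 in the -IAA arm, 7 to 8 at 60 min with IAA, and 0 between the arms. The fit without a trend changed no call. For stages, no share of all genes is given for the fits without the block, without a replicate or after division by the library's factor. Their counts are therefore no result about these genes as a set. TPM values hold no read counts, so what depth limits is unknown; the 50 min stage of CCNA-GFP cells rests on 1 library and most stages on 2.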
